A study of Sus scrofa with 22 samples.

Results

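Semaphorins and ephrins are guidance cues: proteins on a cell or around it that tell growing axons, migrating neurons and myelinating cells where to go. Semaphorins bind plexins, receptors whose inner part switches off small GTPases and so loosens the cytoskeleton and adhesion, and most secreted semaphorins of class 3 need a neuropilin as co-receptor. Ephrins are anchored in the membrane and bind Eph receptors, the largest family of receptor tyrosine kinases, with signals passing into both cells. In the developing cerebellum of the mouse these systems are known for granule cell migration (SEMA6A with PLXNA2), granule cell precursor growth (PLXNB2) and climbing fibre and Purkinje cell wiring.

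The genes described here are all those with a SEMA, PLXN, NRP, EPHA, EPHB, EFNA or EFNB symbol among the 31907 genes counted, which gave 53 genes: 20 semaphorins, 9 plexins, 2 neuropilins, 8 ephrins and 14 Eph receptors. They were chosen by name and not by their values. RNA came from whole cerebellum of piglets (Sus scrofa) operated at 8 days of age and followed for 3 weeks. The 11 BDL piglets (7 females, 4 males) had bile duct ligation, which closes the duct that carries bile from the liver, and the 11 SHAM piglets (5 females, 6 males) had the operation without the ligation. Animals are numbered here within their group in the order of deposition. The labels name no genotype, drug or strain, and say nothing of the litter of each animal. Each library is 1 animal, so p-values measure the spread between animals. The comparison asks whether blocked bile flow early in life alters the transcripts of the cerebellum.

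Libraries held 14811464 to 20046909 gene counts. KDM5D, a gene of the Y chromosome, fitted the labelled sex in all 22 libraries, with at most 2 counts in each female and at least 234 in each male. The tissue showed the markers of cerebellum: GABRA6 of granule neurons had 319 to 423 CPM (counts scaled to the library size after TMM normalization), and PCP2 of Purkinje cells had 279 to 453 CPM. MBP, a protein of myelin, ranged from 2600 to 16035 CPM between animals. In RNA from whole tissue, fewer cells of a type and less RNA per cell cannot be told apart. CPM is not divided by transcript length, so levels are compared between animals and not between genes.

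After a filter on low counts, 51 of the 53 genes were tested together with the rest of 14994 genes. SEMA4G had 0 counts in all 22 libraries, which allows up to 3 counts per library, or between 0.149 and 0.200 CPM depending on the library. EPHB6, an Eph receptor without kinase activity, had 14 counts in all and at most 3 in a library. Both were left untested. The threshold for a changed gene was a p under 0.05 in edgeR's quasi-likelihood test after Benjamini-Hochberg adjustment over all genes tested. Fold changes are log2 of BDL over SHAM, adjusted for sex, with their standard error (SE).

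None of the 51 guidance genes changed between BDL and SHAM piglets. The background was the same, with 0 of 14994 genes (0%) changed and a smallest adjusted p of 0.822. At an unadjusted p under 0.05 there were 3 of the 51 guidance genes (PLXNA2, PLXNB1 and EFNB3), or 5.88%, against 4.96% of all genes. The log2 fold change was above 0 for 21 guidance genes and below 0 for 30, with a median of -0.01, against 0.0006 for all genes. BDL and SHAM values overlapped for all 51 tested guidance genes, and the share of all genes with such overlap was not computed. For all 51, the 95% interval of the difference lay within 2-fold in either direction, which was so for 98% of all genes. For 46 of them (90.2%) it lay within 1.5-fold, against 86.9% of all genes.

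**Figure D1:**
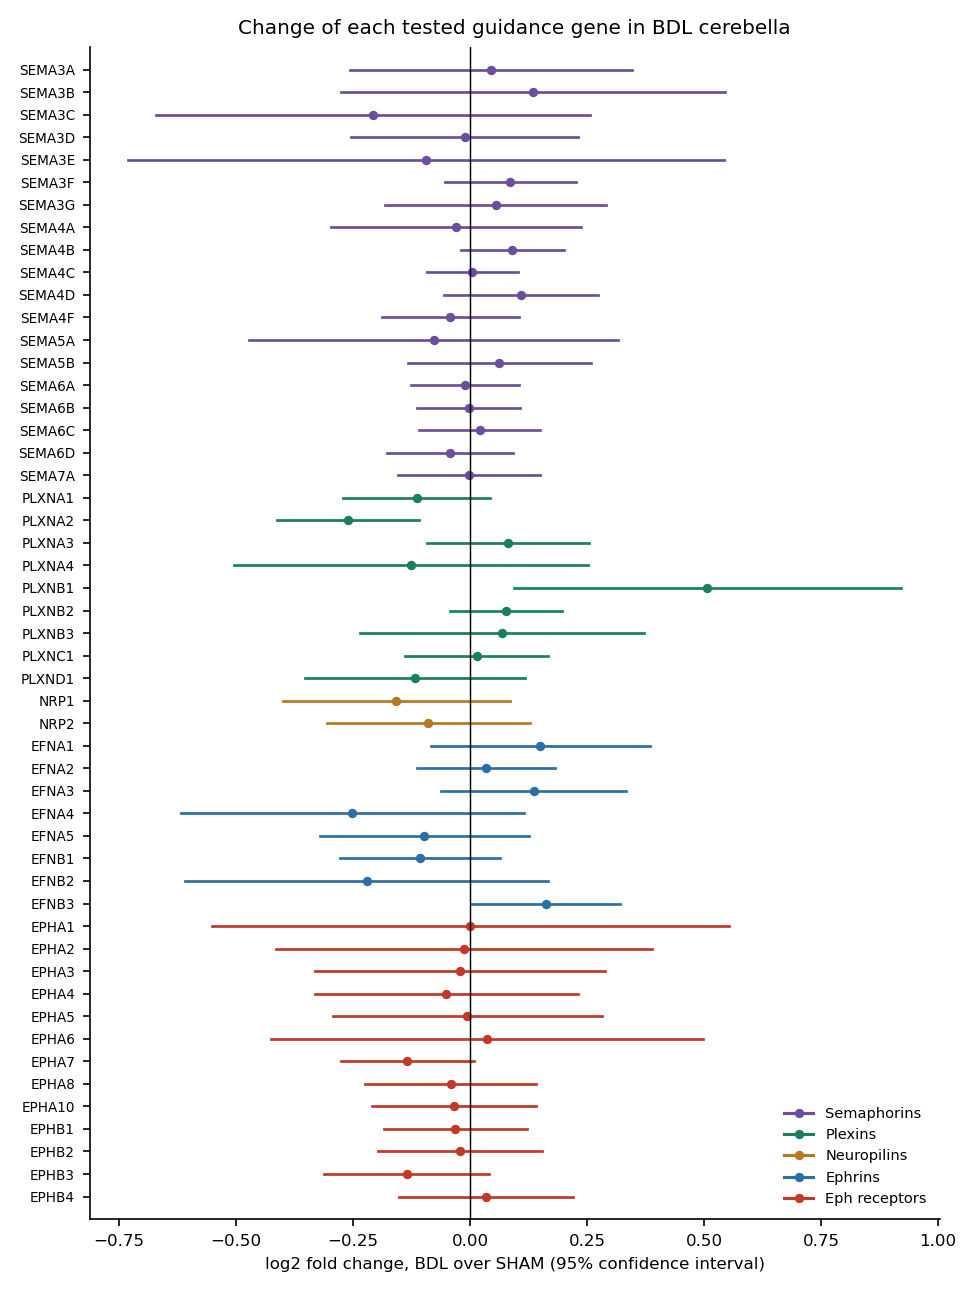
Log2 fold change of BDL over SHAM (horizontal axis) with its 95% interval for each of the 51 tested genes, grouped by family. The estimates run from -0.26 (PLXNA2) to 0.51 (PLXNB1), and all intervals but those of PLXNA2, PLXNB1 and EFNB3 include 0.

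The 20 semaphorins are the ligands of the plexins. Of the 19 tested, 9 had a log2 fold change above 0 and 10 below, with a median of -0.00, and all 19 estimates lay between -0.21 (SEMA3C) and 0.13 (SEMA3B). Secreted class 3 semaphorins act mainly through neuropilins, and 4 of the 7 were above 0. SEMA3F, a repellent cue that signals through NRP2 and the member of its class with the most counts, had a lowest, median and highest level of 32.6, 40.1 and 43.0 CPM in BDL piglets, against 29.4, 37.2 and 44.2 CPM in SHAM piglets. The means were 39.5 ± 2.98 CPM in BDL and 37.4 ± 4.98 CPM in SHAM (SD, n = 11 each), with a log2 fold change of 0.09 ± 0.07 (SE; edgeR adjusted p = 0.881), so the groups differed by less than the spread between animals. SEMA3A, the classic growth cone collapsing factor, averaged 12.8 ± 2.54 CPM in BDL and 12.4 ± 3.29 CPM in SHAM. SEMA3E, which binds PLXND1 without a neuropilin, had 0.664 to 2.19 CPM in BDL and 0.254 to 2.64 CPM in SHAM, and its interval for the log2 fold change, -0.73 to 0.54, was the widest of the guidance genes in span.

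Class 4 semaphorins are membrane proteins and bind mainly plexins of group B. SEMA4D, a ligand of PLXNB1 that oligodendrocytes carry in the mouse, had a lowest, median and highest level of 150, 187 and 237 CPM in BDL piglets, against 139, 178 and 206 CPM in SHAM piglets. The BDL animals reached higher but covered nearly the whole SHAM range, with means of 188 ± 29.5 CPM in BDL and 174 ± 19.2 CPM in SHAM and a log2 fold change of 0.11 ± 0.08 (SE; adjusted p = 0.881). SEMA4B had 24.6, 28.8 and 35.3 CPM as lowest, median and highest value in BDL piglets, against 25.7, 27.3 and 30.7 CPM in SHAM piglets. Its means were 29.2 ± 3.37 CPM in BDL and 27.8 ± 1.64 CPM in SHAM, a log2 fold change of 0.09 ± 0.05 (SE; adjusted p = 0.881), and 7 of 11 BDL animals lay above the SHAM mean. SEMA4C, a ligand of PLXNB2, was the steadiest guidance gene, with 145 to 177 CPM in BDL and 133 to 181 CPM in SHAM and a log2 fold change of 0.01 ± 0.05. SEMA4A and SEMA4F had log2 fold changes of -0.03 and -0.04.

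Semaphorins of classes 5, 6 and 7 are also membrane proteins, SEMA7A through a lipid anchor. SEMA5B had a lowest, median and highest level of 32.0, 42.1 and 53.0 CPM in BDL piglets, against 29.3, 37.1 and 53.7 CPM in SHAM piglets, with means of 41.7 ± 6.40 CPM in BDL and 39.3 ± 7.23 CPM in SHAM and a log2 fold change of 0.06 ± 0.10 (SE; adjusted p = 0.933). SEMA6B had 114, 126 and 157 CPM in BDL piglets, against 113, 128 and 145 CPM in SHAM piglets. Its means were 129 ± 13.4 CPM in BDL and 127 ± 10.5 CPM in SHAM, and the log2 fold change was -0.00 ± 0.05 (SE; adjusted p = 0.991). SEMA6A, the class 6 ligand of PLXNA2 and PLXNA4, had 103 to 134 CPM in BDL and 110 to 138 CPM in SHAM, with a log2 fold change of -0.01 ± 0.06. SEMA7A, a ligand of PLXNC1 and of integrins, had 108, 131 and 154 CPM in BDL piglets, against 102, 121 and 173 CPM in SHAM piglets. Its means were 128 ± 12.3 CPM in BDL and 127 ± 20.2 CPM in SHAM with a log2 fold change of -0.00 ± 0.07 (SE; adjusted p = 0.995). For SEMA6B and SEMA7A the raw means and the fold change adjusted for sex differ in sign, and without the sex term the log2 fold change was 0.02 for SEMA6B and 0.01 for SEMA7A, so neither has a direction.

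Among the plexins, the receptors of the semaphorins, 5 of 9 had a log2 fold change above 0. PLXNA2 had the smallest p of all guidance genes. It is the receptor through which SEMA6A acts on granule cells in the mouse, and lies on chromosome 9 at 134584760 to 134800471 of the Sscrofa11.1 build. Its lowest, median and highest level was 58.5, 68.0 and 85.9 CPM in BDL piglets, against 71.3, 79.8 and 105 CPM in SHAM piglets. Of the 11 BDL animals 10 lay below the SHAM mean, but the ranges overlapped between 71.3 and 85.9 CPM. The means were 69.3 ± 7.81 CPM in BDL and 82.5 ± 11.4 CPM in SHAM, and the log2 fold change was -0.26 ± 0.07 (SE; 95% interval -0.41 to -0.11; unadjusted p = 0.00159, adjusted p = 0.881). The estimate was -0.26 ± 0.10 within females and -0.27 ± 0.11 within males. It does not pass over the 14994 genes, among which 744 had an unadjusted p under 0.05.

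The other plexins of group A pair with neuropilins or with class 6 semaphorins. PLXNA1 had a lowest, median and highest level of 61.6, 73.5 and 83.4 CPM in BDL piglets, against 56.1, 78.6 and 95.4 CPM in SHAM piglets. Its means were 74.5 ± 6.70 CPM in BDL and 80.1 ± 12.6 CPM in SHAM, with a log2 fold change of -0.11 ± 0.08 (SE; adjusted p = 0.881). The BDL values lay inside the SHAM range. PLXNA3, an X-linked gene, had 64.2, 84.6 and 99.2 CPM in BDL piglets, against 66.9, 72.7 and 111 CPM in SHAM piglets, with means of 84.8 ± 9.89 CPM in BDL and 79.4 ± 13.5 CPM in SHAM and a log2 fold change of 0.08 ± 0.08 (SE; adjusted p = 0.904). PLXNA4 varied more between animals, from 8.51 to 22.9 CPM in BDL and from 8.66 to 22.7 CPM in SHAM, with a log2 fold change of -0.13 ± 0.18.

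Plexins of group B are the receptors of class 4 semaphorins. PLXNB1, on chromosome 13 at 31113910 to 31140133, had the largest positive estimate, at a low level: 0.418, 0.996 and 1.31 CPM as lowest, median and highest value in BDL piglets, against 0.368, 0.666 and 0.936 CPM in SHAM piglets. Of the 11 BDL animals 10 lay above the SHAM mean, and the ranges overlapped. The means were 0.977 ± 0.272 CPM in BDL and 0.679 ± 0.171 CPM in SHAM, and the log2 fold change was 0.51 ± 0.20 (SE; 95% interval 0.09 to 0.92; unadjusted p = 0.0183, adjusted p = 0.881). These levels rest on 6 to 23 counts per library, and the gene overlaps another RefSeq gene. PLXNB2, which granule cell precursors use in the mouse, had 166, 197 and 234 CPM in BDL piglets, against 158, 191 and 209 CPM in SHAM piglets, with means of 199 ± 20.4 CPM in BDL and 189 ± 15.1 CPM in SHAM and a log2 fold change of 0.08 ± 0.06 (SE; adjusted p = 0.881). PLXNB3 ranged from 23.0 to 56.3 CPM in BDL and from 23.0 to 52.8 CPM in SHAM, with a log2 fold change of 0.07 ± 0.15.

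PLXNC1, the receptor of SEMA7A, had a lowest, median and highest level of 95.2, 118 and 132 CPM in BDL piglets, against 87.0, 115 and 137 CPM in SHAM piglets. The means were 116 ± 12.4 CPM in BDL and 114 ± 15.4 CPM in SHAM, with a log2 fold change of 0.01 ± 0.07 (SE; adjusted p = 0.981). PLXND1, a plexin of blood vessels, had 8.91 to 16.8 CPM in BDL and 11.4 to 17.2 CPM in SHAM, with a log2 fold change of -0.12 ± 0.11. Both neuropilins had estimates below 0. NRP1, co-receptor of SEMA3A and of VEGF, had 6.53, 10.3 and 13.0 CPM in BDL piglets, against 7.81, 10.5 and 15 CPM in SHAM piglets, with means of 9.91 ± 1.99 CPM in BDL and 10.9 ± 2.11 CPM in SHAM and a log2 fold change of -0.16 ± 0.12 (SE; adjusted p = 0.881). NRP2, co-receptor of SEMA3F, averaged 7.97 ± 1.18 CPM in BDL and 8.41 ± 1.51 CPM in SHAM, with a log2 fold change of -0.09 ± 0.11.

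**Figure D2:**
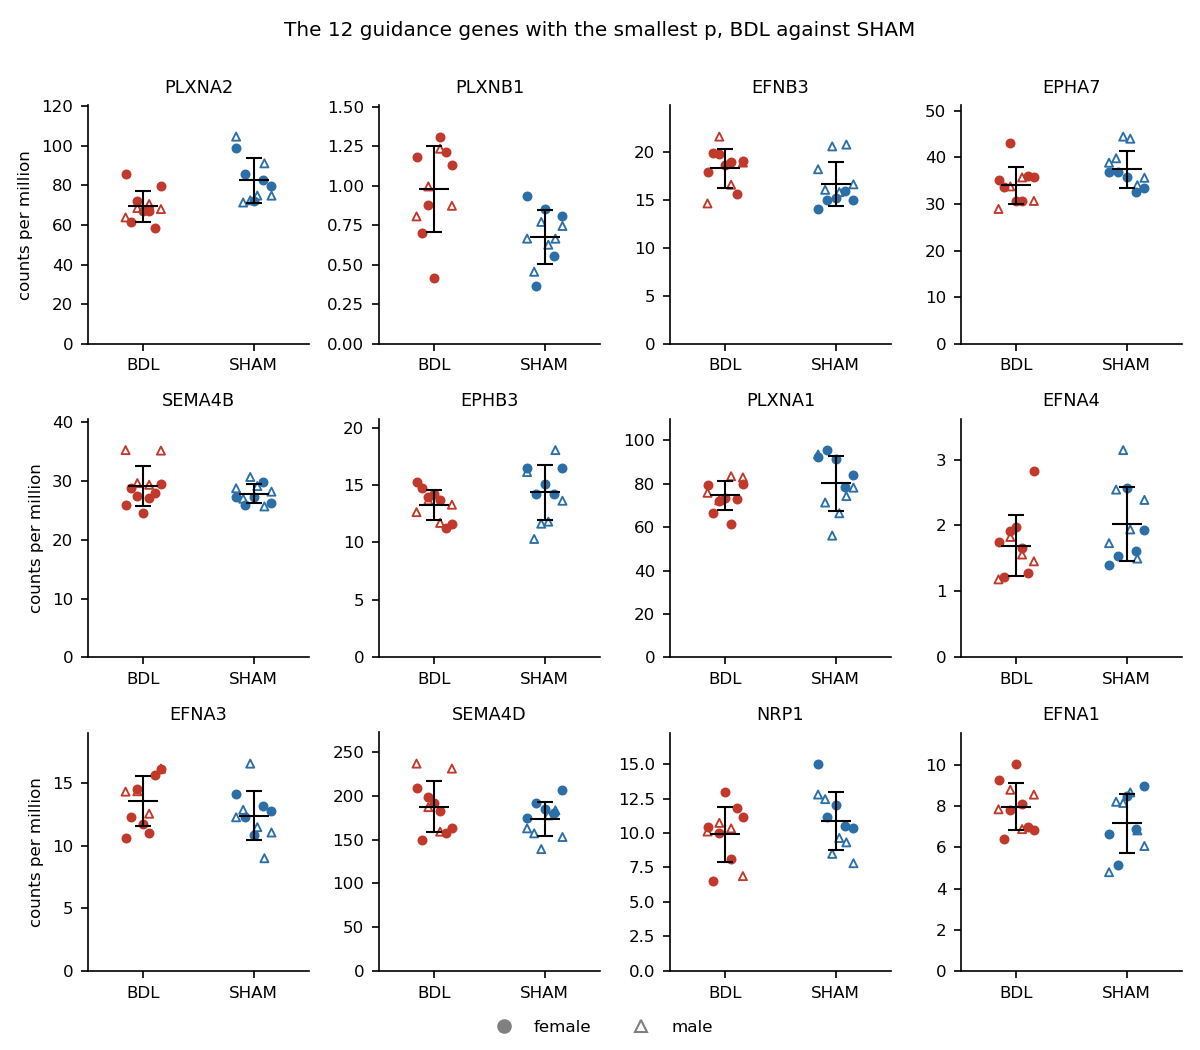
CPM per animal (vertical axis) of the 12 guidance genes with the smallest p for BDL against SHAM, BDL animals left of SHAM animals; each point is 1 animal, the middle line is the group mean and the whiskers are the SD. The groups overlap for each gene, and PLXNA2 has 10 of 11 BDL animals below the SHAM mean of 82.5 CPM.

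The 8 ephrins are the ligands of the Eph receptors, and 4 had a log2 fold change above 0 and 4 below. Of the ephrins A, which a lipid anchor holds in the membrane, EFNA1, EFNA3 and EFNA4 lie beside each other on chromosome 4, with gaps of 36499 and 11440 bp. EFNA1 had a lowest, median and highest level of 6.40, 7.85 and 10.1 CPM in BDL piglets, against 4.80, 6.90 and 8.98 CPM in SHAM piglets, with means of 7.97 ± 1.14 CPM in BDL and 7.18 ± 1.44 CPM in SHAM and a log2 fold change of 0.15 ± 0.11 (SE; adjusted p = 0.881). EFNA3 had 10.6, 14.3 and 16.1 CPM in BDL piglets, against 8.99, 12.3 and 16.5 CPM in SHAM piglets, with means of 13.6 ± 2.01 CPM in BDL and 12.4 ± 1.94 CPM in SHAM and a log2 fold change of 0.14 ± 0.10 (SE; adjusted p = 0.881). EFNA4 had 1.18, 1.65 and 2.83 CPM in BDL piglets, against 1.40, 1.93 and 3.14 CPM in SHAM piglets, with means of 1.69 ± 0.468 CPM in BDL and 2.03 ± 0.559 CPM in SHAM and a log2 fold change of -0.25 ± 0.18 (SE; adjusted p = 0.881). The neighbours therefore had estimates on both sides of 0, and none passed. EFNA2 had 15.1, 20.2 and 22.7 CPM in BDL piglets, against 16.4, 19.0 and 22.4 CPM in SHAM piglets, with means of 19.8 ± 2.34 CPM in BDL and 19.4 ± 1.90 CPM in SHAM and a log2 fold change of 0.03 ± 0.07 (SE; adjusted p = 0.953). EFNA5, a repellent ligand in mapping of axons, averaged 7.50 ± 0.966 CPM in BDL and 7.94 ± 1.65 CPM in SHAM.

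Ephrins B span the membrane and signal backwards into their own cell. EFNB3 had a lowest, median and highest level of 14.6, 18.9 and 21.6 CPM in BDL piglets, against 14, 16 and 20.8 CPM in SHAM piglets. Of the 11 BDL animals 8 lay above the SHAM mean, with means of 18.3 ± 2.02 CPM in BDL and 16.7 ± 2.25 CPM in SHAM and a log2 fold change of 0.16 ± 0.08 (SE; unadjusted p = 0.0464, adjusted p = 0.881). EFNB1, an X-linked gene, had 19.2, 21.8 and 29.0 CPM in BDL piglets, against 18.7, 24.4 and 31.3 CPM in SHAM piglets, with means of 22.9 ± 3.06 CPM in BDL and 24.5 ± 3.44 CPM in SHAM and a log2 fold change of -0.11 ± 0.08 (SE; adjusted p = 0.881). EFNB2, an ephrin of arteries and of neural cells, ranged from 8.12 to 18.3 CPM in BDL and from 9.75 to 30.6 CPM in SHAM, with a log2 fold change of -0.22 ± 0.19.

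Of the 13 Eph receptors tested, 3 had a log2 fold change above 0 and 10 below, with a median of -0.02 and a range from -0.14 to 0.04. EPHA8 had a lowest, median and highest level of 94.8, 117 and 138 CPM in BDL piglets, against 82.2, 119 and 149 CPM in SHAM piglets. Its means were 117 ± 12.9 CPM in BDL and 120 ± 21.3 CPM in SHAM, with a log2 fold change of -0.04 ± 0.09 (SE; adjusted p = 0.954). EPHA7, a receptor of ephrins A, had 28.9, 33.8 and 43.1 CPM in BDL piglets, against 32.6, 36.8 and 44.4 CPM in SHAM piglets. Of the 11 BDL animals 10 lay below the SHAM mean, with means of 34.0 ± 3.92 CPM in BDL and 37.5 ± 3.97 CPM in SHAM and a log2 fold change of -0.13 ± 0.07 (SE; unadjusted p = 0.0621, adjusted p = 0.881). EPHA4, which binds ephrins of both kinds, averaged 11.9 ± 2.89 CPM in BDL and 12.6 ± 3.0 CPM in SHAM. EPHA10, an Eph receptor without kinase activity, averaged 37.8 ± 5.13 CPM in BDL and 38.9 ± 5.69 CPM in SHAM.

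The receptors of ephrins B were tested for 4 of 5 genes, and 3 of the 4 had estimates below 0. EPHB1 had a lowest, median and highest level of 74.8, 93.0 and 108 CPM in BDL piglets, against 73.2, 99 and 119 CPM in SHAM piglets, with means of 93.7 ± 9.73 CPM in BDL and 96.2 ± 13.4 CPM in SHAM and a log2 fold change of -0.03 ± 0.07 (SE; adjusted p = 0.957). EPHB3 had 11.2, 13.7 and 15.3 CPM in BDL piglets, against 10.3, 14.2 and 18 CPM in SHAM piglets. Of the 11 BDL animals 9 lay below the SHAM mean, with means of 13.3 ± 1.33 CPM in BDL and 14.4 ± 2.39 CPM in SHAM and a log2 fold change of -0.14 ± 0.09 (SE; adjusted p = 0.881). EPHB2, a receptor of synapse formation, averaged 69.9 ± 10.6 CPM in BDL and 71.6 ± 9.80 CPM in SHAM, and EPHB4, the venous partner of EFNB2, averaged 6.75 ± 0.619 CPM in BDL and 6.62 ± 1.02 CPM in SHAM.

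The guidance genes differed in how much they varied between animals of the same sex and treatment. The standard deviation of log2 CPM left after sex and treatment had a median of 0.23 over the 51 genes, against 0.20 over all genes tested. SEMA4C had 0.10, at the 8.88th percentile of all genes, followed by SEMA4B with 0.11 and SEMA6B with 0.12. SEMA3E had 0.72, at the 97.4th percentile, followed by EPHA1 with 0.56 and SEMA3C with 0.53. SEMA3E, EPHA1 and SEMA3C all had under 7 CPM in every animal.

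The partners of these receptors also gave no changed gene. Of the co-receptors and effectors of semaphorin signalling, 36 of 39 listed genes were tested, 12 above 0 and 24 below, with a median log2 fold change of -0.02 against 0.0006 for all genes. At an unadjusted p under 0.05, 3 of the 36 were below 0 and none above, while 744 of all 14994 genes (4.96%) had such a p, 409 of them below 0. GSK3B, a kinase of growth cone collapse, averaged 137 ± 13.8 CPM in BDL and 151 ± 12.9 CPM in SHAM, NRCAM, an adhesion molecule that joins neuropilin receptors, averaged 196 ± 16.1 CPM in BDL and 214 ± 15.2 CPM in SHAM, and DPYSL5, a collapsin response mediator, averaged 93.4 ± 11 CPM in BDL and 106 ± 15 CPM in SHAM. Their log2 fold changes were -0.14 ± 0.06 for GSK3B, -0.12 ± 0.05 for NRCAM and -0.18 ± 0.08 for DPYSL5 (SE; adjusted p = 0.881 for each).

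Of the effectors of Eph and ephrin signalling, 31 of 35 were tested, 13 above 0 and 18 below, with a median of -0.03, and 2 of the 31 had an unadjusted p under 0.05, against 4.96% of all genes. SYNJ1, a lipid phosphatase of synaptic vesicle recycling, averaged 130 ± 7.89 CPM in BDL and 142 ± 14.1 CPM in SHAM, and ABL2, a tyrosine kinase that binds Eph receptors, averaged 21.2 ± 5.26 CPM in BDL and 26.2 ± 5.69 CPM in SHAM. Their log2 fold changes were -0.13 ± 0.05 for SYNJ1 and -0.30 ± 0.14 for ABL2, and that of ROCK2, a kinase downstream of RhoA, was -0.15 ± 0.07 (SE; adjusted p = 0.881 for each). Of the netrin, slit, RGM and FLRT families and their receptors, 24 of 24 were tested, 7 above 0 and 17 below, with a median of -0.08. FLRT2, an adhesion protein that repels axons through UNC5 receptors, averaged 12.8 ± 2.0 CPM in BDL and 15.4 ± 2.0 CPM in SHAM, with a log2 fold change of -0.26 ± 0.09 (SE; adjusted p = 0.881), and was the only gene of that list of 24 with an unadjusted p under 0.05, against 4.96% of all genes.

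Markers of the cell types of the tissue gave no changed gene between BDL and SHAM either. All 15 tested oligodendrocyte and myelin genes had estimates above 0, with a median log2 fold change of 0.19 and a score (mean log2 CPM of the list) of 6.95 ± 0.58 in BDL and 6.79 ± 0.43 in SHAM (SD, n = 11 each). The summed level of the list ran from 5209 to 29303 CPM in BDL and from 7444 to 25631 CPM in SHAM. Granule neuron genes had 5 of 16 above 0 and a score of 8.79 ± 0.07 in BDL and 8.84 ± 0.10 in SHAM. Astrocyte and Bergmann glia genes had 4 of 12 above 0, meningeal and fibroblast genes 5 of 17 and Purkinje cell genes 8 of 14. Granule cell precursor genes had 7 of 13, endothelial genes 6 of 12, choroid plexus and ependymal genes 3 of 7 and microglia genes 4 of 11. Blood cell genes had 3 of 3 above 0, with a median log2 fold change of 0.44. The blood cell score was 1.19 ± 0.67 in BDL and 0.62 ± 0.68 in SHAM. The summed level of this list was low, from 3.71 to 16.9 CPM in BDL and from 2.13 to 16.3 CPM in SHAM. Treatment was also fitted beside each of these scores but that of blood cells, 1 score at a time. Beside the microglia score the log2 fold change was -0.26 ± 0.07 for PLXNA2, 0.52 ± 0.20 for PLXNB1 and 0.16 ± 0.08 for EFNB3 (SE). Some results beside the myelin score are given further below, and those beside the other scores are not given here. The part of the cell types in the estimates above was not tested.

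The same fit also compared the sexes. None of the 51 passed for females over males, against 9 of 14994 genes (0.06%), and 4 had an unadjusted p under 0.05 (7.84%, against 5.95% of all genes). EPHA2, a receptor of ephrins A in epithelia and vessels, averaged 1.88 ± 0.59 CPM in females and 1.31 ± 0.37 CPM in males, with a log2 fold change of 0.53 ± 0.20 (SE; adjusted p = 0.769). SEMA3G, a semaphorin of blood vessels, averaged 13.4 ± 2.0 CPM in females and 10.7 ± 2.3 CPM in males, a log2 fold change of 0.30 ± 0.12 (adjusted p = 0.771). SEMA4B averaged 27.4 ± 1.5 CPM in females and 29.9 ± 3.1 CPM in males, a log2 fold change of -0.14 ± 0.05 (adjusted p = 0.769). SEMA6B averaged 133 ± 12 CPM in females and 123 ± 9.2 CPM in males, a log2 fold change of 0.12 ± 0.05 (adjusted p = 0.824). The X-linked genes EFNB1, PLXNA3 and PLXNB3 were not among them.

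The difference of BDL from SHAM was then compared between females and males. None of the 51 genes passed the test of interaction, as none of the 14994 did (0%, smallest adjusted p = 0.917). At an unadjusted p under 0.05 there were 6 guidance genes (11.8%), against 4.6% of all genes. PLXNA1 had 72.2 ± 6.5 CPM in BDL females against 88.3 ± 6.9 CPM in SHAM females (SD, n = 7 and 5), and 78.6 ± 5.4 CPM in BDL males against 73.3 ± 12.5 CPM in SHAM males (n = 4 and 6). In females, BDL values of 61.6 to 79.7 CPM lay almost wholly below SHAM values of 78.6 to 95.4 CPM, while in males BDL values of 72.3 to 83.4 CPM lay inside the SHAM range of 56.1 to 93.4 CPM. The 4 BDL males had 72.3, 75.8, 82.9 and 83.4 CPM, and the 5 SHAM females had 78.6, 84.0, 91.4, 92.3 and 95.4 CPM. The female log2 fold change minus the male one was -0.39 ± 0.14 for PLXNA1 (SE; edgeR adjusted p = 0.917).

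SEMA4D had 179 ± 22 CPM in BDL females against 188 ± 12 CPM in SHAM females, and 204 ± 37 CPM in BDL males against 162 ± 16 CPM in SHAM males. The 4 BDL males had 159, 187, 231 and 237 CPM, so 3 of them lay above the highest SHAM male at 183 CPM. The female minus male difference was -0.40 ± 0.14 (SE; adjusted p = 0.917). The oligodendrocyte and myelin score moved the same way, with 6.77 ± 0.62 in BDL females against 6.97 ± 0.29 in SHAM females, and 7.26 ± 0.41 in BDL males against 6.65 ± 0.50 in SHAM males. A fit with this score as a covariate was added after the values were seen. In that fit the difference was -0.16 ± 0.10 for SEMA4D and -0.43 for PLXNA1. Whether myelin content has a part in the differences of these genes was not tested. EPHA10 had 35.3 ± 4.2 CPM in BDL females against 40.7 ± 3.5 CPM in SHAM females, and 42.1 ± 3.8 CPM in BDL males against 37.3 ± 7.0 CPM in SHAM males, a difference of -0.38 ± 0.16. EPHA7 had 34.9 ± 4.2 CPM in BDL females against 35.1 ± 2.0 CPM in SHAM females, and 32.3 ± 3.0 CPM in BDL males against 39.5 ± 4.2 CPM in SHAM males, a difference of 0.28 ± 0.13 (adjusted p = 0.917 for both genes).

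Within females no guidance gene passed, as no gene did (0%), and 3 of 51 had an unadjusted p under 0.05 (5.88%, against 5.83% of all genes). Their log2 fold changes of BDL over SHAM females were -0.29 ± 0.09 for PLXNA1, 0.30 ± 0.10 for EFNB3 and -0.26 ± 0.10 for PLXNA2 (SE). Within males no guidance gene passed either (0% of all genes), and 5 had an unadjusted p under 0.05 (9.8%, against 4.08%). Their log2 fold changes of BDL over SHAM males were 0.33 ± 0.11 for SEMA4D, -0.29 ± 0.10 for EPHA7, 0.20 ± 0.08 for SEMA4B, -0.27 ± 0.11 for PLXNA2 and -0.55 ± 0.26 for EFNA4 (SE). PLXNA2 was the only guidance gene in both lists, with the same sign (edgeR adjusted p = 0.795 in females and 0.9999 in males). It also had the smallest p of the guidance genes over both sexes, from these same animals, so the 2 lists are not separate evidence. The share of all genes in both lists was not computed.

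**Figure D3:**
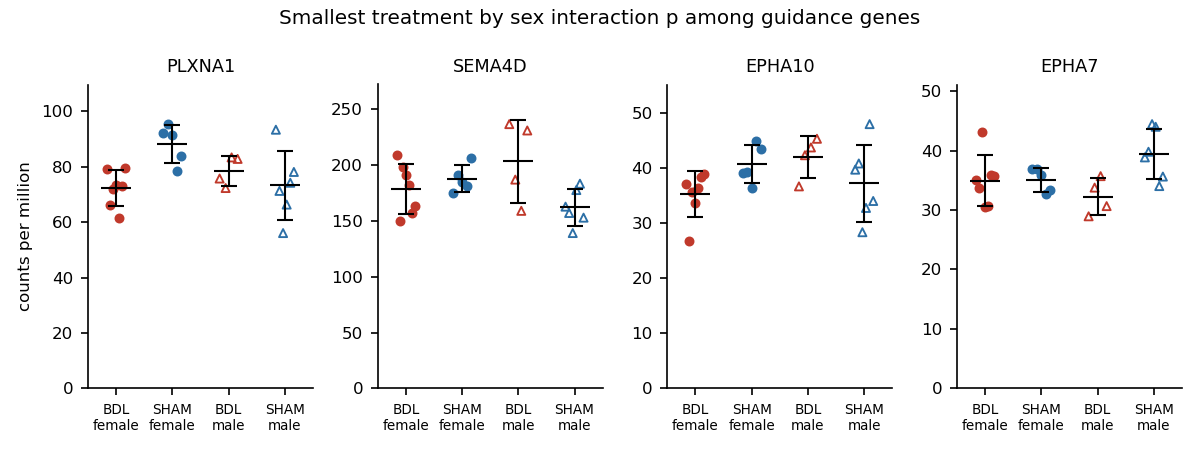
CPM per animal (vertical axis) by treatment and sex for the 4 guidance genes with the smallest p for interaction, PLXNA1, SEMA4D, EPHA10 and EPHA7; each point is 1 animal, the middle line is the group mean and the whiskers are the SD. PLXNA1 averages 72.2 CPM in BDL females and 88.3 CPM in SHAM females, and 78.6 CPM in BDL males and 73.3 CPM in SHAM males. None of the 4 genes passed the test of interaction (edgeR adjusted p = 0.917 for each).

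Body weight, printed as labelled and without a unit, was 2044 ± 313 in BDL and 2035 ± 273 in SHAM. No guidance gene passed for weight, as no gene of the table did (0%, smallest adjusted p = 0.335), and 4 had an unadjusted p under 0.05 (7.84%, against 7.39% of all genes). Per SD of weight, the log2 level was higher by 0.33 ± 0.09 for PLXNB1 (SE; adjusted p = 0.423), by 0.09 ± 0.04 for PLXNA2 (adjusted p = 0.554) and by 0.06 ± 0.03 for SEMA6A (adjusted p = 0.675), and for SEMA6B the coefficient was -0.06 ± 0.03 (adjusted p = 0.617).

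Some guidance genes varied between animals together with the markers of a cell type. Each gene was fitted on the score of a cell type, 1 score at a time, beside sex and treatment, and coefficients are log2 change per SD of the score. Over 9 scores, 11 of the 51 genes passed for at least 1, in 15 pairs of gene and score, and all 15 coefficients were above 0. How many of all genes passed for at least 1 score, and on which side of 0, was not computed. The share of all genes that passed is given below for each score. The Pearson correlation of log2 level and score, which leaves sex and treatment aside, passed its permutation test in 17 of 459 pairs after adjustment. Of these, 11 also passed in the fit and 6 did not, and 4 of the 15 pairs that passed in the fit did not pass by Pearson r. Spearman rho passed in 6 pairs. Correlations were computed for the guidance genes alone, so no share of all genes stands beside these counts.

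For the oligodendrocyte and myelin score, 5 of 51 guidance genes passed (9.8%), against 704 of 14979 genes (4.7%). They were PLXNB3, SEMA4D, SEMA3B, SEMA3C and EFNB2. PLXNB3, a receptor that oligodendrocytes express in the mouse, lies on chromosome X at 124507953 to 124522780. It ranged from 23.0 to 56.3 CPM over the 22 animals, with a coefficient of 0.30 ± 0.04 (SE; edgeR adjusted p = 1.70e-05). Its log2 level correlated with the score over 22 animals (Pearson r = 0.81, Spearman rho = 0.87, each with a permutation p of 1e-05, the smallest that 100000 resamples can give, and 0.0023 adjusted over 459 pairs), and r was 0.86 without the 2 animals farthest from the median score. SEMA4D, on chromosome 14 at 957074 to 1078522, had a coefficient of 0.17 ± 0.02 (adjusted p = 4.25e-05), r = 0.85 and rho = 0.86 (permutation p = 1e-05, adjusted 0.0023), and r = 0.89 without those animals. SEMA4D had 150 CPM in the BDL animal with the lowest score and 237 CPM in the BDL animal with the highest.

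SEMA3B, a secreted semaphorin on chromosome 13 at 32737100 to 32749633, had a coefficient of 0.34 ± 0.07 (adjusted p = 0.00356), r = 0.71 and rho = 0.76 (permutation p = 3e-04 and 0.00016, adjusted 0.0172 and 0.0147), and r = 0.68 without the 2 farthest animals. Its neighbour SEMA3F, 65869 bp away, did not pass. These 3 genes passed in each of 22 fits that left out 1 animal, a set of fits added for the scores after the values were seen. Within 1 treatment group of 11 animals, PLXNB3 had coefficients of 0.30 in BDL and 0.26 in SHAM and SEMA3B of 0.40 in BDL and 0.45 in SHAM, and both passed in each group. SEMA4D had 0.17 in BDL and 0.11 in SHAM and passed in BDL (adjusted p = 0.0138) but not in SHAM (adjusted p = 0.374). The difference between the groups was not tested. SEMA3C had a coefficient of 0.36 ± 0.10 (adjusted p = 0.0222; r = 0.57, permutation p = 0.0059, adjusted 0.10), and EFNB2 of 0.29 ± 0.08 (adjusted p = 0.0261; r = 0.58, permutation p = 0.00467, adjusted 0.0857). Whether each of these 2 passed depended on single animals. SEMA3C did not pass without BDL replicate 1 (adjusted p = 0.082), BDL replicate 2 (0.061) or SHAM replicate 11 (0.070). EFNB2 did not pass without BDL replicate 2 (0.117), BDL replicate 3 (0.054) or SHAM replicate 4 (0.060). With 1 animal left out, the coefficient ran from 0.28 to 0.40 for SEMA3C and from 0.24 to 0.33 for EFNB2.

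**Figure D4:**
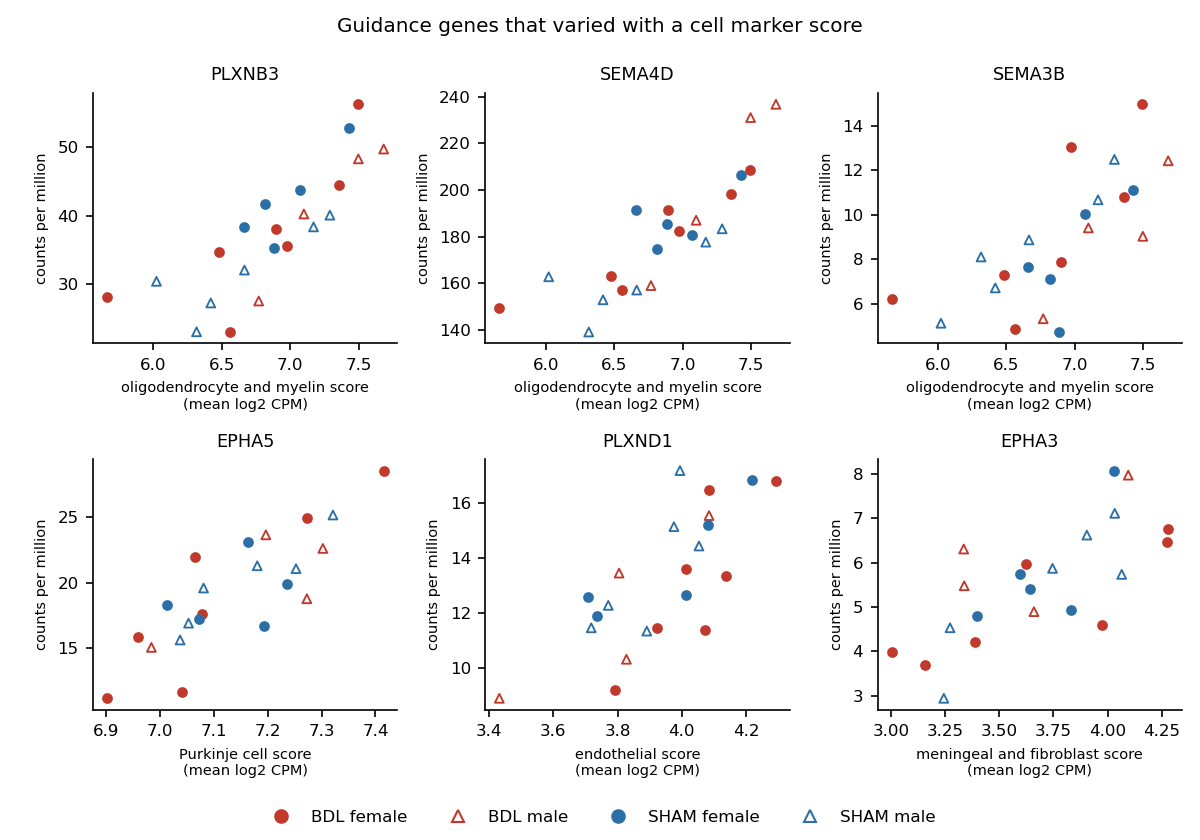
CPM (vertical axis) against the score of a cell type (horizontal axis, mean log2 CPM of its markers) for 6 guidance genes; each point is 1 animal, with BDL and SHAM by colour and sex by shape. PLXNB3, SEMA4D and SEMA3B are higher in animals with a higher oligodendrocyte and myelin score. Whether the trend differs between BDL and SHAM animals was not tested.

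For the Purkinje cell score, 3 of 51 passed (5.88%), against 5.78% of genes. EPHA5, a neuronal receptor of ephrins A on chromosome 8 at 63285006 to 63604734, was lowest at 11.13 CPM and highest at 28.6 CPM, with a coefficient of 0.27 ± 0.05 (SE; adjusted p = 0.00320). Its r was 0.80 and its rho 0.81 (permutation p = 2e-05 and 3e-05, adjusted 0.00306 and 0.00459), r was 0.70 without the 2 farthest animals, and it passed in each of 22 fits that left out 1 animal. It did not pass without the 2 farthest animals together (coefficient 0.24, adjusted p = 0.079) or in SHAM animals alone (0.20, adjusted p = 0.228). SEMA6D had a coefficient of 0.10 ± 0.03 (adjusted p = 0.0273; r = 0.68, rho = 0.54), and PLXNA4 of 0.27 ± 0.08 (adjusted p = 0.0355; r = 0.63, rho = 0.60). Both were lost when any of BDL replicates 2, 3, 4 or 9 was left out, with adjusted p between 0.051 and 0.110, and PLXNA4 also without SHAM replicate 1 (0.067). Without the 2 farthest animals the adjusted p was 0.211 for SEMA6D and 0.222 for PLXNA4. In SHAM animals alone the coefficient of SEMA6D was -0.0051, against 0.14 in BDL animals alone. Purkinje score and level were both lowest in BDL replicate 2 for EPHA5.

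For the astrocyte and Bergmann glia score, 4 of 51 passed (7.84%), against 6.7% of genes: PLXNA4 with 0.30 ± 0.08 (adjusted p = 0.0238), EFNB2 with 0.30 ± 0.08 (0.0276), SEMA6D with 0.10 ± 0.03 (0.0404) and SEMA3C with 0.35 ± 0.11 (0.0456). All 4 were lost without BDL replicate 2, the lowest animal for this score, with adjusted p between 0.184 and 0.235, and all 4 without BDL replicate 4, with adjusted p between 0.052 and 0.126. Without BDL replicate 3 all but SEMA3C were lost, with adjusted p between 0.065 and 0.129. SEMA3C was lost in 13 of the 22 fits that left out 1 animal and SEMA6D in 7. In SHAM animals alone the coefficient of SEMA6D on this score was -0.0076. EPHA4 did not pass in the fit but had r = 0.64 (permutation p adjusted 0.0433), and r = 0.42 without the 2 farthest animals. These 4 genes of the fit were also named for the myelin or the Purkinje score. The astrocyte and the myelin scores had r = 0.60 with each other, which did not pass (permutation p = 0.00291, adjusted 0.0524 over 36 pairs of scores). Without the 2 farthest animals r was 0.35.

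In the fit, vessel, meningeal and granule neuron scores each had 1 guidance gene. PLXND1, the plexin of vessels, on chromosome 13 at 68946658 to 68996625, had a coefficient of 0.23 ± 0.04 on the endothelial score (SE; adjusted p = 0.0128), against 0.214% of genes that passed, or 1.96% of the 51. Its r was 0.76 and its rho 0.69 (permutation p = 3e-05 and 0.00057, adjusted 0.00344 and 0.0436), with r = 0.64 without the 2 farthest animals, and it did not pass without BDL replicate 4 (adjusted p = 0.0504), without BDL replicate 7 (0.059) or without the 2 farthest animals together (0.119). EPHA2 and SEMA3G did not pass in the fit for this score but had r = 0.70 for EPHA2 and 0.68 for SEMA3G (permutation p adjusted 0.0172 and 0.0225), with r = 0.43 for EPHA2 and 0.54 for SEMA3G without the 2 farthest animals. EPHA3, on chromosome 13 at 166592492 to 166942791, had 0.26 ± 0.06 on the meningeal and fibroblast score (adjusted p = 0.0238), against 0.915% of genes. Its r was 0.73 and its rho 0.75 (permutation p = 0.00013 and 7e-05, adjusted 0.0119 and 0.00803). It was lost without any of BDL replicates 1, 6, 8 or 9, with adjusted p between 0.054 and 0.076, and without the 2 farthest animals (0.093). EPHA8 had 0.16 ± 0.04 on the granule neuron score (adjusted p = 0.0429), against 0.808% of genes, with r = 0.67 (adjusted 0.0272) and rho = 0.45 (adjusted 0.348), and was lost in 11 of 22 fits that left out 1 animal and without the 2 farthest animals (adjusted p = 0.426). SEMA4C and PLXNA1 did not pass in the fit for this score but had r = 0.67 for SEMA4C and 0.65 for PLXNA1 (permutation p adjusted 0.0272 and 0.0387), with r = 0.40 and 0.41 without the 2 farthest animals. In the fit, no guidance gene passed for the granule cell precursor score (0.0868% of genes did), the choroid plexus and ependymal score (0.127%) or the microglia score (0.654%). At an unadjusted p under 0.05 there were 10 of the 51 for the granule cell precursor score (10.7% of all genes), 6 for the choroid plexus and ependymal score (5.33%) and 4 for the microglia score (7.78%). SEMA4C had a negative correlation with the granule cell precursor score (r = -0.69, permutation p adjusted 0.0172; rho = -0.51, adjusted 0.222; r = -0.45 without the 2 farthest animals), with a coefficient of -0.07 ± 0.02 in the fit (SE; adjusted p = 0.199). It was the only negative pair of the 17.

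**Figure D5:**
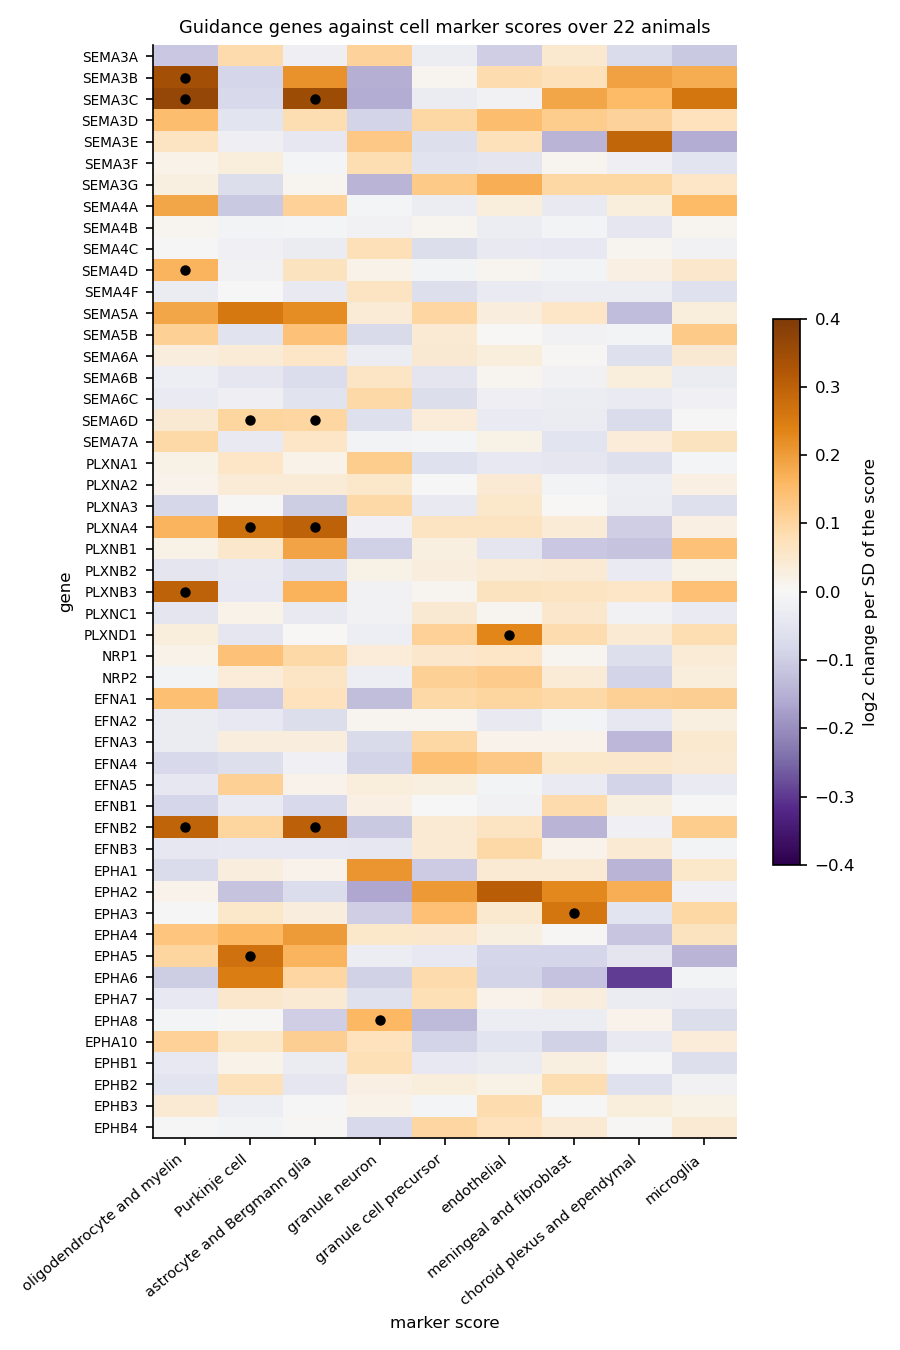
Log2 change per SD of each of 9 cell type scores (columns) for the guidance genes (lines of the map), as colour, with black dots on the 15 pairs that passed at an adjusted p under 0.05. The dotted pairs are all positive, and PLXNB3, SEMA4D and SEMA3B have dots under the oligodendrocyte and myelin score alone.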

How the data were processed

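Total RNA of 22 cerebella was sequenced as 150 bp read pairs, per the labels' protocols. The deposited values are raw read counts per Ensembl gene, with no normalization. Trim Galore, HISAT2, HTSeq, DESeq2 and the Sscrofa11.1 build are named in the submitters' processing notes. Versions and the strand setting were not given in the sources used here: reads of overlapping genes, which 12 of the 53 genes have on RefSeq, may not be separable, and near-identical copies may share reads. The 5 lines of each table that belong to no gene held 29.9% to 34.6% of counts and were left out. Positions came from RefSeq by symbol.

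Genes were filtered with filterByExpr (minimum count 10, minimum total 15), scaled by TMM and tested with edgeR 4.0.16 (R 4.3.3; quasi-likelihood, robust) on sex and treatment, with Benjamini-Hochberg adjustment over all genes tested. Interaction and effects within a sex came from 1 model of the 4 groups over all 22 animals. Scores are mean log2 CPM (prior count 2) of markers; correlations used two-sided permutation tests of 100000 resamples. Over the 231 pairs of libraries the chi-square per degree of freedom was at least 7.01, so none looked deposited more than once.

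The genes given in full are the 12 with the smallest p and the member of each family with the most counts; for sex, interaction and weight they are the 4 with the smallest p, for each score those that passed, up to 5, and for each partner list the genes with the smallest p, up to 3. The genes and lists were chosen with earlier results of these data known. Alternatives were other scalings, filters, tools (DESeq2 1.42.0, limma-voom 3.58.1), covariates, each sex or treatment alone, and each animal left out.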

Additional observations from a re-analysis of the deposited data

Results flagged for a closer look

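The 4 groups of treatment and sex, of 4 to 7 animals, were each checked for the 4 genes with the smallest p for interaction. Among these 16 checks, 2 had a sample far from the others by Dixon's criterion at 95%. Chance gives this in about 1 of 20 checks. EPHA10 in BDL females had a lowest animal at 26.74 CPM, while the group averaged 35.3 ± 4.2 CPM (SD, n = 7). EPHA7 in BDL females had a highest animal at 43.11 CPM, while the group averaged 34.9 ± 4.2 CPM. Groups of 11 animals were not checked in this way.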

How the results depend on the processing

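No guidance gene passed for BDL against SHAM, sex, interaction or weight under any setting run for that comparison, including each animal left out (0 to 0 genes). The count at an unadjusted p under 0.05 for BDL against SHAM was 3 of 51, with 6 in males alone, 2 with limma-voom, 4 in females alone, 4 beside the myelin score and 2 to 4 when 1 animal was left out. Over all 14994 genes the count was 744, with 637 in males alone, 725 with limma-voom, 787 in females alone and 927 beside the myelin score. No scaling moved the median of all genes by 0.01 on the log2 scale. The number that passed for the myelin score was 5, with 3 without the 2 animals farthest from the median score, 3 in BDL animals alone, 2 in SHAM animals alone and 3 to 6 with 1 animal left out. For the Purkinje score it was 3, with 0 without the 2 farthest animals, 0 in SHAM alone and 1 to 4 with 1 left out. For the astrocyte score it was 4, with 0 without the 2 farthest, 0 in SHAM alone and 0 to 6 with 1 left out. For the granule neuron score it was 1, with 0 without the 2 farthest, 0 in BDL alone and 0 to 2 with 1 left out. For the endothelial score it was 1, with 2 when the score stood without sex and treatment, 0 without the 2 farthest, 0 in BDL alone, 0 in SHAM alone and 0 to 1 with 1 left out. For the meningeal score it was 1, with 0 beside the animal number, 0 without the 2 farthest, 0 in BDL alone, 0 in SHAM alone and 0 to 1 with 1 left out. Shares of all genes are not given for the fits with 1 animal left out or for the alternative settings of the scores. Fits of 11 animals have fewer samples, and otherwise the cause was not tested.

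Named genes changed sign as follows. The log2 fold change of SEMA7A was -0.0024, but 0.0042 with limma-voom, 0.0016 with no count filter, 0.0028 with upper quartile scaling, 0.014 with no sex term, 0.0019 beside weight, 0.0048 beside animal number, 0.033 in males and -0.024 to 0.048 with 1 animal left out. That of SEMA6B was -0.0030, but 0.00051 with no filter, 0.0029 with upper quartile scaling, 0.019 with no sex term, 0.0042 beside the myelin score, 0.018 in females and -0.026 to 0.015 with 1 left out. In females alone EFNA2 had -0.083 (0.03 in all animals), SEMA3F -0.0039 (0.09), SEMA4D -0.071 (0.11) and SEMA5B -0.0097 (0.06). In males alone EFNB3 had -0.0017 (0.16 in all animals), EPHA8 0.079 (-0.04), PLXNA1 0.11 (-0.11) and PLXNC1 -0.065 (0.01), and PLXNC1 had -0.022 to 0.050 with 1 left out. In SHAM alone SEMA6D had -0.0051 on the Purkinje and -0.0076 on the astrocyte score, each 0.10 in all animals. Of 1521 fits of named genes, 1388 kept direction and side of the threshold, 93 lost the threshold and 40 changed sign. All 93 losses were in fits of the 15 pairs of gene and score, the only ones that had passed and could lose it. No paired analysis was possible because the labels say nothing of litter and name no pairs of BDL and SHAM animals. The replicate numbers used here follow the order of deposition. Depth limits the genes of few counts, such as PLXNB1.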
